A study of Sus scrofa with 8 samples.

Results

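The neuregulin and ERBB receptor genes described here were 7 of the 31014 genes in the deposited count table of minipig heart. They were taken by gene name: the ligands NRG1, HBEGF and BTC, and the receptors EGFR, ERBB2, ERBB3 and ERBB4. All 7 are protein-coding, each matched 1 row, and all 7 passed the filter on low counts. NRG1 and BTC passed it through doxorubicin libraries alone, since each had 10 or more reads in 3 of the 5 doxorubicin libraries and in 0 of the 3 vehicle libraries. The libraries came from heart tissue of wild-type miniature pigs given doxorubicin (n = 5) or vehicle (n = 3), and the comparison asks how the heart transcriptome differed between them. Doxorubicin is an anthracycline used against cancer that is known to damage the heart. The sources used here give no dose, schedule, age, sex or heart region. Nothing in the labels states that each library is a different pig, and p-values therefore reflect only the spread between these samples, which may be technical.

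ERBB receptors are tyrosine kinases of the cell surface that act in pairs. Neuregulin 1 binds ERBB3 and ERBB4, whereas heparin-binding EGF-like growth factor and betacellulin bind both EGFR and ERBB4. ERBB2 has no known ligand of its own and is the favoured partner of the other receptors, and ERBB3 has very little kinase activity and signals through its partner. In the heart, neuregulin 1 is released mainly by endothelial cells, and ERBB2 and ERBB4 are its receptors on cardiomyocytes. In mice, loss of ERBB2 or ERBB4 from cardiomyocytes leads to dilated cardiomyopathy, and in patients antibodies against ERBB2 add to the heart toxicity of anthracyclines.

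Library totals ran from 17442566 to 18267178 counts after doxorubicin and from 16105242 to 17195538 counts with vehicle. Levels in counts-per-million (CPM) below are scaled by trimmed mean of M values (TMM) factors, which ran from 1.05 to 1.18 after doxorubicin and from 0.839 to 0.874 with vehicle. Doxorubicin 5 was the least like its group (mean r = 0.912 with the rest of it; 0.941 to 0.956 for doxorubicin 1 to 4 and 0.974 to 0.977 for vehicle). Mitochondrial genes took 8.70% to 16.6% of counts after doxorubicin and 23.6% to 27.5% with vehicle. Of 14938 tested genes 24.9% passed (13.6% higher and 11.3% lower after doxorubicin), by edgeR's quasi-likelihood test with Benjamini-Hochberg adjusted p under 0.05. The 2 groups did not overlap in CPM for 34.9% of tested genes, higher for 17.1% and lower for 17.8%. Of the 7 members 2 passed, a share of 28.6%, which is near that background: EGFR rose and ERBB4 fell.

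ERBB4, the receptor through which neuregulin acts on cardiomyocytes, fell after doxorubicin. It was at 17.3, 17.9, 15.1, 17.2 and 7.10 CPM in doxorubicin 1 to 5, against 39.9, 24.8 and 28.7 CPM in vehicle 1 to 3. Every doxorubicin library lay below every vehicle library, and 4 of the 5 lay close together with doxorubicin 5 well under them. The mean was 14.9 ± 4.50 CPM after doxorubicin and 31.1 ± 7.87 CPM with vehicle (SD, n = 5 and n = 3). This is 2.09-fold lower (log2 fold change −1.06, SE 0.29, adjusted p = 0.0273 by edgeR). Without doxorubicin 5 the log2 fold change was −0.88 (adjusted p = 0.00646), so the call did not rest on the lowest library. The call was lost without doxorubicin 3 (adjusted p = 0.0535), vehicle 1 (0.130) or vehicle 3 (0.0794), and with scaling by library size only (log2 fold change −0.71, adjusted p = 0.0872). The gene lies on chromosome 15, 113966573 to 115096984, on the minus strand (Sscrofa11.1), and is among the longest of the set, with a span of 1130 kb.

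Of 9 cardiomyocyte markers 8 had a negative log2 fold change and 1 a positive one. Their median was −0.56, against 0.02 over all tested genes. With library size only it was −0.22, against 0.38. The summed level of 9 cardiomyocyte markers was 26346 to 56982 CPM after doxorubicin and 58221 to 64420 CPM with vehicle, with doxorubicin 5 the lowest. Within that sum MYH7 alone, the slow myosin heavy chain, held 26357 ± 8518 CPM after doxorubicin and 33631 ± 2744 CPM with vehicle (SD, n = 5 and n = 3) and did not pass. Of those 9 markers 2 fell (22.2%), beside 11.3% of all tested genes lower and 24.9% passing in either direction. The other 7 did not pass. Among them was TNNT2, a troponin subunit with a positive log2 fold change (0.63, SE 0.28, adjusted p = 0.116). MYH7 and TNNT2 were named after their values were seen. RYR2, the calcium release channel, changed by −1.82 on the log2 scale (SE 0.53, adjusted p = 0.0344), and PLN, the inhibitor of the calcium pump, by −1.48 (SE 0.24, adjusted p = 0.0070). With library size only 1 of the 9 was lower and 1 higher. MYH6, also on the list, was not found under its symbol. In bulk tissue fewer cells of a type and less RNA per cell cannot be told apart. Counted against the summed counts of the cardiomyocyte markers, ERBB4 had 325 ± 46.3 counts-per-million of marker counts after doxorubicin and 507 ± 125 with vehicle (SD, n = 5 and n = 3). By library this measure was 341, 315, 394, 305 and 270 in doxorubicin 1 to 5, against 651, 425 and 446 in vehicle 1 to 3. It was thus lower in all 5 doxorubicin libraries than in any vehicle library. On the same measure ERBB2 went the other way, at 858 ± 221 after doxorubicin and 455 ± 109 with vehicle, and every doxorubicin library (608 to 1112) lay above every vehicle library (382 to 580). The measure was chosen after the data were seen, and neither difference was tested. Its divisor was itself lower in every doxorubicin library than in any vehicle library. A gene with equal CPM in both groups would thus read higher after doxorubicin on it, and ERBB2 overlapped between the groups in CPM. The share of all genes without overlap on this measure was not computed.

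ERBB2, the ligandless partner receptor, did not pass. It was at 40.2, 34.7, 42.7, 40.2 and 28.1 CPM in doxorubicin 1 to 5, against 24.7, 33.8 and 24.6 CPM in vehicle 1 to 3. Doxorubicin 5, the lowest of its group, lay under vehicle 2, so the groups overlapped. The mean was 37.2 ± 5.89 CPM after doxorubicin and 27.7 ± 5.26 CPM with vehicle (SD, n = 5 and n = 3). On the log2 scale ERBB2 differed by 0.42 (SE 0.19; edgeR adjusted p = 0.115), and its unadjusted 95% interval ran from 1.01-fold to 1.79-fold. ERBB2 passed without doxorubicin 5 (log2 fold change 0.51, adjusted p = 0.0300) and with library size only (0.79, adjusted p = 0.0142). ERBB2 lies on chromosome 12, 22591621 to 22621384, on the minus strand.

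EGFR, the receptor of EGF and HBEGF, rose after doxorubicin. It was at 8.08, 4.55, 6.54, 7.63 and 5.40 CPM in doxorubicin 1 to 5, against 4.43, 1.53 and 2.13 CPM in vehicle 1 to 3. The groups did not overlap, but the lowest doxorubicin library stood only just above vehicle 1. The mean was 6.44 ± 1.48 CPM after doxorubicin and 2.70 ± 1.53 CPM with vehicle (SD, n = 5 and n = 3). This is 2.39-fold higher (log2 fold change 1.25, SE 0.37, adjusted p = 0.0368 by edgeR), at 90 to 148 reads per doxorubicin library and 22 to 62 reads per vehicle library. Its size lay between 0.97 and 1.81 on the log2 scale whichever library was left out, and EGFR passed in 3 of those 8 fits. The call was lost without doxorubicin 1 (adjusted p = 0.0595), doxorubicin 3 (0.0661), doxorubicin 4 (0.0610), vehicle 2 (0.113) or vehicle 3 (0.138). EGFR lies on chromosome 9, 139302410 to 139474632, on the plus strand. Fibroblasts express EGFR, and the summed level of 10 fibroblast markers was 2532 to 31458 CPM after doxorubicin and 1270 to 1492 CPM with vehicle. Of those 10 markers 5 rose (50%, beside 13.6% of all tested genes). PDGFRA, a surface receptor of resting fibroblasts, fell (log2 fold change −1.13, SE 0.33, adjusted p = 0.0355). Doxorubicin 5 had the highest fibroblast sum, at 31458 CPM, and the second lowest EGFR of its group, and the part of fibroblasts in the EGFR result was not tested.

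ERBB3, the receptor with little kinase activity, was at 10.6, 2.83, 4.81, 9.70 and 1.5 CPM in doxorubicin 1 to 5, against 13.1, 7.14 and 18.1 CPM in vehicle 1 to 3. The doxorubicin libraries split, with 1 and 4 above vehicle 2 and the others below all vehicle libraries. The mean was 5.90 ± 4.09 CPM after doxorubicin and 12.8 ± 5.50 CPM with vehicle (SD, n = 5 and n = 3). The log2 fold change of −1.12 was close to that of ERBB4, but its SE of 0.57 was larger and ERBB3 did not pass (adjusted p = 0.170 by edgeR). Its unadjusted 95% interval ran from 0.189-fold to 1.12-fold. ERBB3 lies on chromosome 5, 21474218 to 21495040, on the plus strand. Schwann cells, the glia of peripheral nerve, depend on ERBB3, so 9 markers of Schwann cells and nerve were read beside it. CDH19 fell (log2 fold change −1.79, SE 0.56, adjusted p = 0.0434) and NCAM1 rose (1.33, SE 0.26, adjusted p = 0.0109), and the other 7 did not pass. That share of 22.2% is near the background of 24.9%. NCAM1, which is also read in muscle, held most of the summed level, at 186 ± 60.0 CPM after doxorubicin and 73.8 ± 10.9 CPM with vehicle (SD, n = 5 and n = 3). The sum of the 9 markers was 226 to 358 CPM after doxorubicin and 147 to 197 CPM with vehicle. SOX10, a transcription factor of glia, was at 3.83 ± 2.03 CPM after doxorubicin and 3.12 ± 1.01 CPM with vehicle (SD, n = 5 and n = 3) and did not pass. The part of these markers in the ERBB3 values was not tested.

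**Figure D1:**
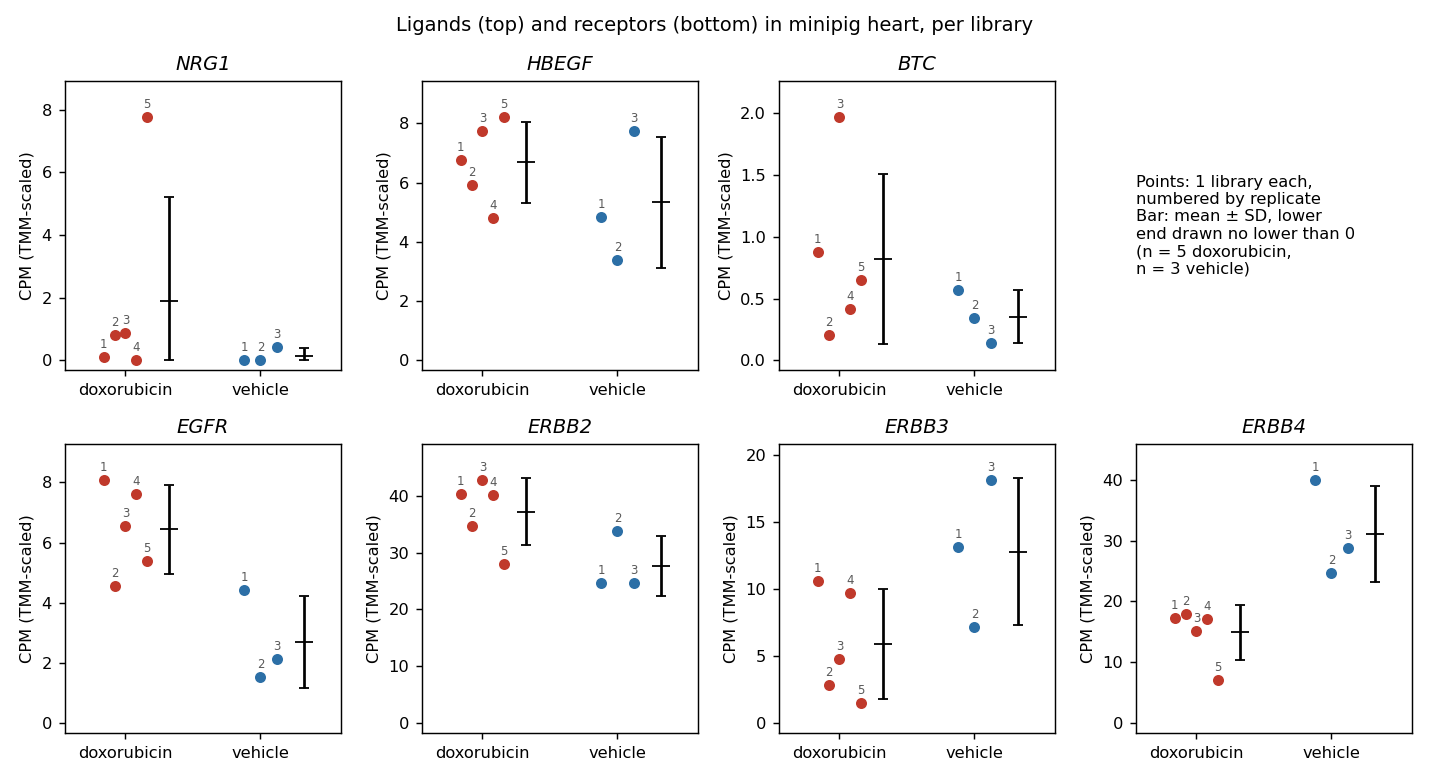
TMM-scaled CPM of the 3 ligands (top) and 4 receptors (bottom) in each library, doxorubicin left and vehicle right, with mean ± SD. ERBB4 lay lower in all 5 doxorubicin libraries and EGFR higher, and NRG1 was high in doxorubicin 5 alone.

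NRG1, the main neuregulin of the heart, was close to the limit of detection in all but 1 library. It had 2, 16, 19, 0 and 155 reads in doxorubicin 1 to 5, against 0, 0 and 6 reads in vehicle 1 to 3. Doxorubicin 5 held 80.7% of the doxorubicin reads, and doxorubicin 1 and 4 lay within the range of vehicle. In CPM this was 7.75 in doxorubicin 5 and 0 to 0.887 in the other doxorubicin libraries, against 0 to 0.427 with vehicle. A library with 0 reads allows up to 3 counts, which is 0.156 CPM in doxorubicin 4 and 0.208 to 0.214 CPM in vehicle 1 and 2, counting error only. The log2 fold change was 3.69 with an SE of 1.87, and NRG1 did not pass (adjusted p = 0.165 by edgeR). It was 8.12 without vehicle 3, the single vehicle library with NRG1 reads, and 3.12 to 4.01 without any of the others that left it testable. Without doxorubicin 2, 3 or 5 NRG1 no longer had enough reads to be tested. NRG1 lies on chromosome 15, 52625550 to 53688003, on the minus strand, with a span of 1062 kb. Endothelial cells are its main known source in the heart, and the summed level of 10 endothelial markers was lowest in doxorubicin 5, at 568.5 CPM, where NRG1 was highest. That sum was 568.5 to 1648 CPM over the doxorubicin libraries and 1293 to 1667 CPM over the vehicle libraries. Of the 10 endothelial markers EMCN, an endothelial sialomucin, fell (log2 fold change −1.27, SE 0.23, adjusted p = 0.00831) and the other 9 did not pass. That is a share of 10%, beside 11.3% of all tested genes lower and 24.9% passing in either direction. Doxorubicin 5 also had the highest mesothelial sum, at 36.1 CPM, of which 32.1 CPM was WT1, against 3.74 to 8.03 CPM for that list with vehicle. MSLN, the defining mesothelial gene, was not found under its symbol, and UPK3B and CALB2 had too few reads to be tested. The part of these cells in the NRG1 values was not tested.

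HBEGF, a membrane-bound ligand that is released by proteases, was the best detected ligand of the 3. It was at 6.77, 5.91, 7.75, 4.82 and 8.20 CPM in doxorubicin 1 to 5, against 4.86, 3.40 and 7.75 CPM in vehicle 1 to 3. The groups overlapped through vehicle 3. The mean was 6.69 ± 1.37 CPM after doxorubicin and 5.34 ± 2.22 CPM with vehicle (SD, n = 5 and n = 3), a log2 difference of 0.33 (SE 0.30; edgeR adjusted p = 0.441). The unadjusted 95% interval, 0.788-fold to 2.00-fold, leaves room for a rise or a fall. HBEGF lies on chromosome 2, 142102455 to 142115192, on the minus strand. Macrophages are a known source of HBEGF, and 5 of 9 macrophage markers rose (55.6%, beside 13.6% of all tested genes). Of the 9, 8 had a positive log2 fold change and 1 a negative one. Their summed level was 245 to 718 CPM after doxorubicin and 149 to 200 CPM with vehicle. The part of macrophages in the HBEGF values was not tested.

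The third ligand, BTC or betacellulin, had 16, 4, 42, 8 and 13 reads in doxorubicin 1 to 5, against 8, 5 and 2 reads in vehicle 1 to 3. The groups overlapped, and doxorubicin 3 was the highest. The log2 fold change of 1.20 had an SE of 0.79 and did not pass (adjusted p = 0.278 by edgeR). BTC lies on chromosome 8, 70645721 to 70697538, on the minus strand.

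Per kilobase of the gene length listed in the deposited table, ERBB2 had the highest level of the 7 in both groups. It was at 7.60 ± 1.20 CPM per kilobase after doxorubicin and 5.66 ± 1.08 with vehicle (SD, n = 5 and n = 3), and no library of the next gene reached it. After doxorubicin HBEGF came next (2.53 ± 0.52 CPM per kilobase), above EGFR in all 5 libraries. EGFR (1.28 ± 0.29), ERBB4 (1.20 ± 0.36) and ERBB3 (1.06 ± 0.74) then overlapped one with the next. With vehicle ERBB4 (2.51 ± 0.63), ERBB3 (2.31 ± 0.99) and HBEGF (2.02 ± 0.84) overlapped each with the next and EGFR (0.54 ± 0.30) lay below all of them. ERBB4 thus held the fourth place after doxorubicin, where its libraries overlapped those of EGFR and ERBB3, and the second place with vehicle. BTC (0.17 ± 0.15 CPM per kilobase after doxorubicin and 0.075 ± 0.046 with vehicle) and NRG1 (0.10 ± 0.17 and 0.0075 ± 0.013) came last in both groups. The listed lengths run from 2.64 kb for HBEGF to 18.9 kb for NRG1, and a gene whose transcripts use only part of that length reads too low on this scale.

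**Figure D2:**
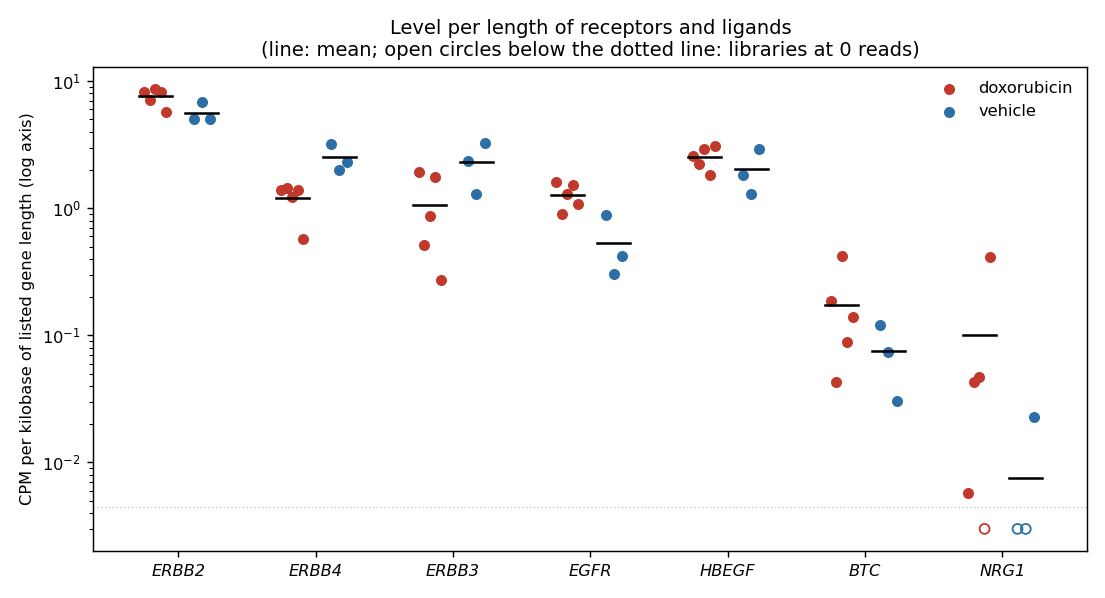
CPM per kilobase of listed gene length for each member on a log axis, doxorubicin left of vehicle, 1 point per library, with a line at the mean and open circles for libraries at 0 reads. ERBB2 stood highest in both groups, while ERBB4 lay at the level of EGFR after doxorubicin and at that of ERBB3 and HBEGF with vehicle.

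The shares of the 4 receptors in their sum differed between the groups for ERBB4 and EGFR, as a description with no test. On the per-kilobase scale ERBB2 took 68.9% ± 5.42 of the receptor sum after doxorubicin and 51.7% ± 12.2 with vehicle (SD, n = 5 and n = 3), with overlap. ERBB4 took 10.7% ± 2.53 after doxorubicin and 22.6% ± 4.69 with vehicle, with ranges of 7.48% to 14.5% and 19.0% to 27.9% that did not overlap. EGFR took 11.6% ± 1.83 after doxorubicin and 4.80% ± 2.52 with vehicle, and these groups did not overlap either. ERBB3 took 8.79% ± 5.01 after doxorubicin and 20.8% ± 8.67 with vehicle, with overlap.

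Ratios of 2 genes in the same library need no scaling factor, so 4 were compared by an exact two-sided permutation test over samples (56 arrangements), where the smallest p is 0.0357. The log2 ratio of ERBB4 to ERBB2 reads was −1.22, −0.95, −1.50, −1.23 and −1.98 in doxorubicin 1 to 5, against 0.69, −0.45 and 0.22 in vehicle 1 to 3. ERBB4 had fewer reads than ERBB2 in all 5 doxorubicin libraries and more in vehicle 1 and 3. The mean log2 ratio differed by −1.53, which is 2.89-fold lower after doxorubicin, with no overlap between the groups (exact permutation p = 0.0357, adjusted p = 0.143 over the 4 ratios). The ratio of ERBB3 to ERBB2 differed by −1.79 (exact permutation p = 0.107) and that of EGFR to ERBB2 by 0.93 (exact permutation p = 0.107), each with overlap and an adjusted p of 0.143. The ratio of NRG1 to ERBB4 differed by 3.58 and ran from −9.37 to 0.13 among the doxorubicin libraries (exact permutation p = 0.179). That difference was 2.31 without doxorubicin 5 and 4.86 without vehicle 3. NRG1 had 0 reads in doxorubicin 4, vehicle 1 and vehicle 2, so the ratios of these libraries rest on the 0.5 added to each count. With other settings, added counts of 0.1 and 1 among them, the NRG1 to ERBB4 difference ran from 3.14 to 4.63. Its size thus depends on the added count. No ratio passed after adjustment, and with this design 1 ratio alone could not have passed.

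**Figure D3:**
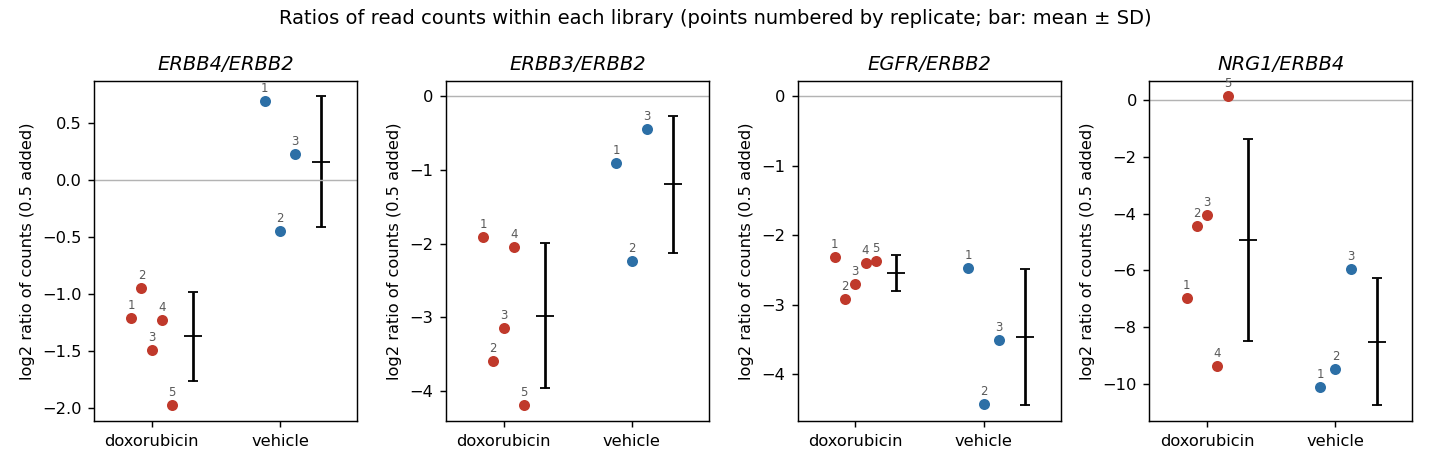
Log2 ratio of read counts within each library (0.5 added to each count) for 4 gene pairs, doxorubicin left and vehicle right, with mean ± SD. The ERBB4 to ERBB2 ratio of all 5 doxorubicin libraries lay below −0.9 and that of all vehicle libraries above −0.5.

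By the Pearson correlation of log2 CPM over the 8 libraries among 12188 named genes with a mean of at least 1 CPM, ERBB4 was closest to INPP4B (r = 0.996), a phosphoinositide phosphatase, GAPVD1 (r = 0.996) and DMXL1 (r = 0.992). ERBB2 was closest to STRN4 (r = 0.979), the homeobox gene IRX5 (r = 0.978) and the histone methyltransferase SETD1A (r = 0.968). EGFR was closest to SFI1 (r = 0.958), MTSS1 (r = 0.954) and CSRNP2 (r = 0.950). ERBB3 was closest to GPRIN3 (r = 0.977), the transcription factor EBF1 (r = 0.974) and ART4 (r = 0.974). NRG1 was closest to ADGRG2 (r = 0.970), ZBED2 (r = 0.964) and CLDN6 (r = 0.963), and BTC to GPR176 (r = 0.946). All these genes share the libraries and their scaling, and a correlation over 8 libraries of 2 groups describes these samples only. Among the members the highest correlation was that of ERBB3 with ERBB4 (r = 0.814).

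Most other EGF-family ligands had few reads. Of 8 listed, 5 had too few reads to be tested and 0 of the 3 tested passed by edgeR or by DESeq2, with 2 at an unadjusted p under 0.05. NRG4, a neuregulin that binds ERBB4, was the exception, with 174 to 255 reads per doxorubicin library and 198 to 255 per vehicle library, at 10.7 ± 2.30 CPM after doxorubicin and 15.5 ± 1.91 CPM with vehicle (SD, n = 5 and n = 3; log2 fold change −0.53, SE 0.20, adjusted p = 0.0816). EPGN, epigen, differed by −1.54 on the log2 scale (SE 0.53, adjusted p = 0.0580) and EGF by 0.87 (SE 0.54, adjusted p = 0.249). EPGN had 2 to 8 reads per doxorubicin library and 11 to 13 per vehicle library, and passed the filter on low counts through vehicle libraries alone. AREG, amphiregulin, a ligand of EGFR, was not tested. It had 1, 5, 19, 0 and 29 reads in doxorubicin 1 to 5, against 0 reads in each vehicle library, which allows up to 0.208 to 0.214 CPM per vehicle library. NRG3 had 1 read in all 8 libraries.

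Ligands of this family are made on the membrane and cut loose by proteases. Of 9 genes of ligand shedding and processing 5 passed, all of them higher (55.6%, beside 13.6% of all tested genes). The median log2 fold change was 0.80, against 0.02 over all tested genes. The list was chosen with earlier results of these data known, so this share is a description only. By edgeR 2 others were lower at an unadjusted p under 0.05, ADAM10 (log2 fold change −0.63, adjusted p = 0.0724) and NRDC (−0.46, adjusted p = 0.0903). ADAM19, a metalloprotease that cuts neuregulins in mice, was at 49.7, 50.1, 71.9, 39.4 and 61.5 CPM in doxorubicin 1 to 5, against 22.3, 17.4 and 27.0 CPM in vehicle 1 to 3. All 5 doxorubicin libraries lay above vehicle (log2 fold change 1.29, SE 0.23, adjusted p = 0.00812 by edgeR). ADAM12, which sheds HBEGF in mouse heart, rose to 6.33 ± 4.17 CPM after doxorubicin, against 0.26 ± 0.22 CPM with vehicle (SD, n = 5 and n = 3; log2 fold change 4.58, SE 0.91, adjusted p = 0.0109). It had 34 to 230 reads per doxorubicin library and 0, 6 and 5 reads in vehicle 1 to 3. ADAM12 thus passed the filter on low counts through doxorubicin libraries alone, and the size of its change is uncertain. RHBDF2 (log2 fold change 1.21, SE 0.25) and RHBDF1 (0.80, SE 0.23) encode the inactive rhomboids that bring the protease ADAM17 to the cell surface, and FRMD8 (0.91, SE 0.18) stabilises them. All 3 rose (adjusted p = 0.0116, 0.0324 and 0.0104), RHBDF1 being named after its value was seen. The broad sheddases ADAM17 and ADAM10, named like BACE1 and NRDC after their values were seen, did not pass. ADAM17 was at 29.4 ± 1.75 CPM after doxorubicin and 32.7 ± 5.28 CPM with vehicle, and ADAM10 at 23.7 ± 5.42 and 36.7 ± 8.64 CPM. BACE1, another protease of neuregulin 1, was at 37.0 ± 4.42 CPM after doxorubicin and 33.0 ± 4.14 CPM with vehicle. ADAM19 passed in every alternative. Without vehicle 3 the calls of ADAM12 (adjusted p = 0.0538), FRMD8 (0.0579), RHBDF2 (0.0571) and RHBDF1 (0.0940) were lost, and without vehicle 1 those of FRMD8 (0.0542), RHBDF2 (0.0601) and RHBDF1 (0.123). RHBDF1 was also lost without doxorubicin 2 (0.0513), doxorubicin 3 (0.0581) or vehicle 2 (0.0922).

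Inside the cell, genes of the first steps of signalling differed in RNA level in both directions, where 24.9% of all tested genes passed. Of 15 adaptors and genes of the PI3K-AKT arm 3 passed (20%), with a median log2 fold change of −0.09 that turned to 0.27 with library size only and to 0.0037 without doxorubicin 5. PIK3CA, the catalytic subunit of PI3K, fell (34.6 ± 6.45 CPM after doxorubicin and 60.8 ± 11.99 CPM with vehicle; log2 fold change −0.81, SE 0.20, adjusted p = 0.0184). PIK3R2, a regulatory subunit, rose (0.75, SE 0.18, adjusted p = 0.0199), as did SHC1, an adaptor that binds the activated receptors (0.51, SE 0.13, adjusted p = 0.0248). GAB1, a docking protein, had −0.69 (SE 0.27, adjusted p = 0.0814). Of 15 genes of the RAS-MAPK arm and kinases 5 passed (33.3%), with a median of −0.01 that turned to 0.34 with library size only. SRC, a kinase activated by ERBB receptors, rose to 38.1 ± 8.87 CPM after doxorubicin, against 14.8 ± 2.26 CPM with vehicle (log2 fold change 1.36, SE 0.22, adjusted p = 0.00674), and it passed in every alternative. HRAS (0.95, SE 0.21, adjusted p = 0.0150) and STAT5A (0.44, SE 0.13, adjusted p = 0.0402) rose. SOS2 (−0.63, SE 0.15, adjusted p = 0.0176) and SOS1 (−0.66, SE 0.21, adjusted p = 0.0437), the exchange factors that load RAS, fell, SOS1 being named after its value was seen. With library size only PIK3CA (adjusted p = 0.124), SOS2 (0.181) and SOS1 (0.307) kept a negative fold change but were not called. SHC1 passed in 5 of the 8 fits that left out 1 library (adjusted p up to 0.118), STAT5A in 2 (up to 0.138) and SOS1 in 1, the fit without doxorubicin 5 (up to 0.172 in the others). Each was also lost with no filter on low counts (adjusted p = 0.0547 for SHC1, 0.0967 for STAT5A and 0.0539 for SOS1). PIK3CA, PIK3R2, HRAS and SOS2 passed in 6 of 8, and all 4 were lost without vehicle 3 (adjusted p = 0.0725, 0.0944, 0.0769 and 0.0666).

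Of 16 brakes and turnover genes of the receptors 0 passed by edgeR, beside 24.9% of all tested genes. At an unadjusted p under 0.05 there were 4, and 2 were lower by DESeq2. The median log2 fold change was −0.12, and 0.24 with library size only. The 4 with the smallest p were PTPN12, a phosphatase (−0.47, SE 0.16, adjusted p = 0.0565), NEDD4 (−0.55, SE 0.19, adjusted p = 0.0615) and CBLB (−0.38, SE 0.16, adjusted p = 0.0938), both ubiquitin ligases, and RNF41 (0.55, SE 0.23, adjusted p = 0.0992), a ligase that targets ERBB3. Among chaperones and scaffolds 2 of 7 passed, both higher (28.6%), beside 13.6% of all tested genes higher and 24.9% passing in either direction. CAV3, the muscle caveolin, rose (68.2 ± 12.3 CPM after doxorubicin and 28.9 ± 10.5 CPM with vehicle; log2 fold change 1.24, SE 0.25, adjusted p = 0.0112), and CDC37, which loads kinases onto HSP90, rose by less (0.51, SE 0.15, adjusted p = 0.0382). CDC37 passed in 2 of the 8 fits that left out 1 library (adjusted p up to 0.157) and was lost with no filter (0.0750), and CAV3 passed in 6 of 8, being lost without vehicle 1 (0.0609) or vehicle 3 (0.0602). MUC4, a membrane mucin that binds ERBB2 (2.07, SE 0.69, adjusted p = 0.0531), and CAV1 (−0.68, SE 0.33, adjusted p = 0.154) did not pass.

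Among 9 genes that growth factors induce, all had a positive fold change (median 0.63), as had 7650 of all 14938 tested genes. Of the 9, 1 passed, as higher (11.1%), beside 13.6% of all tested genes higher and 24.9% passing in either direction. ETV4, an ETS transcription factor downstream of receptor kinases, was at 7.26, 15.8, 40.1, 8.25 and 34.9 CPM in doxorubicin 1 to 5, against 1.64, 1.11 and 1.78 CPM in vehicle 1 to 3. The lowest doxorubicin library was above all vehicle libraries (log2 fold change 3.81, SE 0.69, adjusted p = 0.00876 by edgeR), and ETV4 passed in every alternative. FOS (1.69, SE 0.57, adjusted p = 0.0554), ETV5 (0.82, SE 0.34, adjusted p = 0.103) and JUN (0.63, SE 0.27, adjusted p = 0.111) did not pass. Over all 7 lists 16 of 74 tested genes passed (21.6%), 13 higher and 3 lower, again near the background of 24.9%. With library size only 28 passed, all higher, while the median over all tested genes moved by 0.36 on the log2 scale, to 0.38. Without vehicle 1 only 5 passed and without vehicle 3 only 3 (ETV4, ADAM19 and SRC among both), whereas without doxorubicin 5 there were 27, of which 10 were lower.

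**Figure D4:**
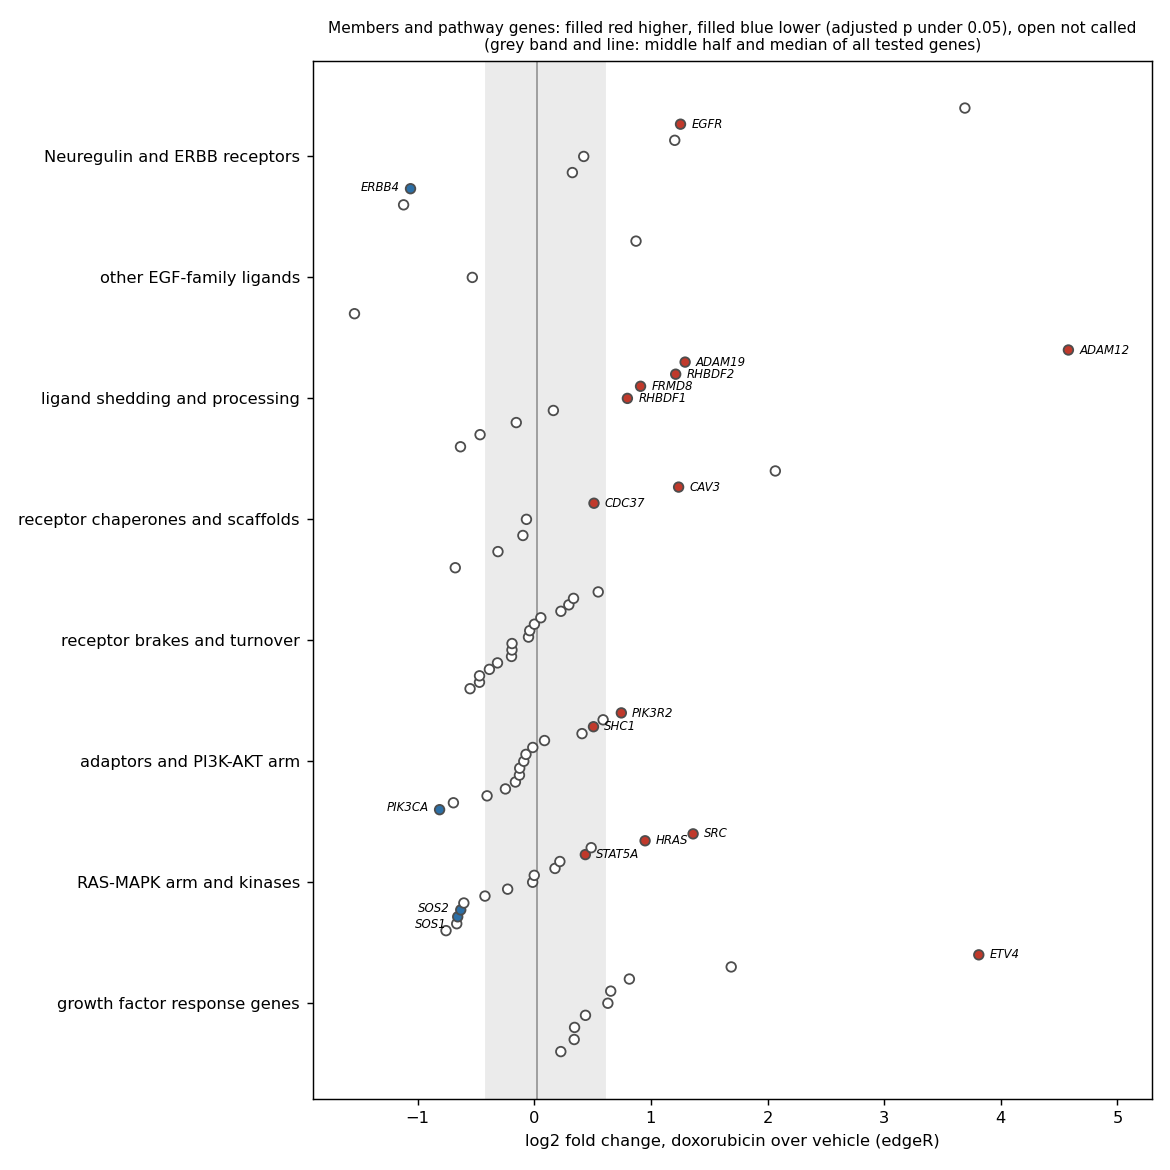
Log2 fold change, doxorubicin over vehicle, of the 7 members and of the tested genes of 7 pathway lists, 1 point per gene. Filled points passed the test, red higher and blue lower, and the grey band and line give the quartiles (−0.41 to 0.61) and median (0.02) of all tested genes.

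Markers of other cell types differed between the same libraries, and their part in the results above was not tested. Beside the counts that follow, 13.6% of all tested genes were higher and 11.3% lower. Of 5 tested lymphocyte markers 4 rose, with sums of 12.9 to 31.9 CPM after doxorubicin and 5.79 to 8.67 CPM with vehicle. Among these, CD3D passed the filter on low counts through doxorubicin libraries alone. It had 15 to 58 reads per doxorubicin library and 4, 8 and 8 reads in vehicle 1 to 3. CD79A, CD79B and MS4A1 had too few reads to be tested. Of 3 tested adipocyte markers 2 fell, with sums of 38.1 to 144 CPM after doxorubicin and 259 to 414 CPM with vehicle. FABP4 held most of that sum, at 84.2 ± 47.3 CPM after doxorubicin and 320 ± 68.2 CPM with vehicle (SD, n = 5 and n = 3). ADIPOQ was at 0.11 ± 0.08 and 8.40 ± 9.11 CPM. It passed the filter on low counts through vehicle libraries alone, with 0 to 4 reads per doxorubicin library. PLIN1 and LEP had too few reads to be tested. Of 9 smooth muscle and pericyte markers 2 rose and 1 fell, with sums of 957 to 4508 CPM after doxorubicin and 850 to 1543 CPM with vehicle. Of 4 endocardial markers 1 rose.

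**Figure D5:**
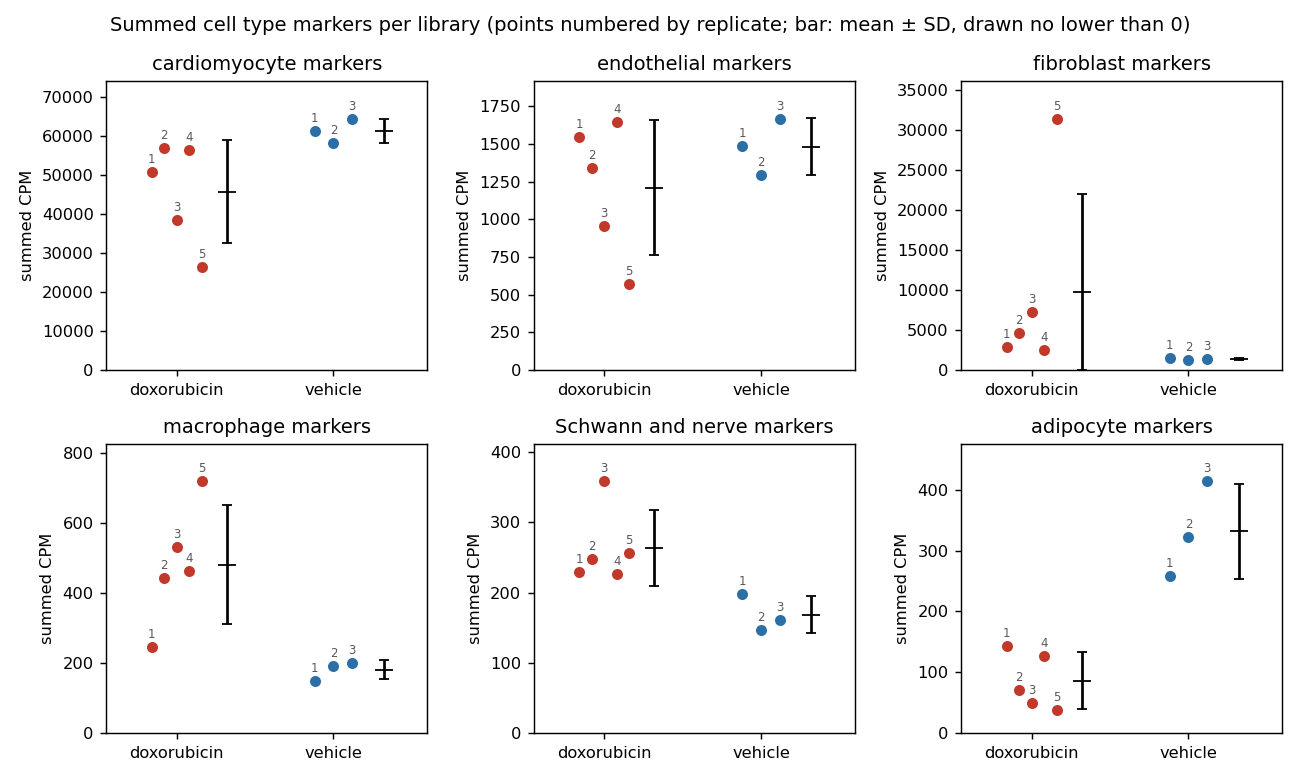
Summed CPM of 6 cell type marker lists in each library, doxorubicin left and vehicle right, with mean ± SD. Doxorubicin 5 had the lowest cardiomyocyte and endothelial sums and the highest fibroblast and macrophage sums.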

How the data were processed

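The authors deposited raw counts per gene for 8 heart libraries, whole numbers per the file headers and values; the log2 fold changes, CPM and p-values are computed here. Per the labels' protocols, column-purified total RNA went into an mRNA library kit. The sources used here name no aligner, counter or strand setting; annotated genes that overlap a member held at most 15 reads in all. Columns were matched to samples by title. Of 31014 gene IDs 30335 matched a RefSeq table of Sscrofa11.1 with the same start and end.

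Testing used edgeR 4.0.16 (R 4.3.3): filterByExpr (minimum count 10, minimum total 15), TMM, and a robust quasi-likelihood test of treatment alone, two-sided, adjusted over all 14938 tested genes. The SE of a log2 fold change is its size over the root of its F value. Intervals use the t quantile of that test. The fit was tested on simulated data. Library pairs within groups differed by at least 17.2 times sampling noise (chi-square over degrees of freedom), so none is a copy. Same-numbered libraries did not deviate together (r from −0.003 to 0.043). This gives no sign that numbers pair samples, but so few libraries cannot exclude a shared batch.

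Members and gene lists were chosen with earlier results of these data known. Named are all members, up to 4 genes with the smallest p in each list, and the genes most like each member (those of HBEGF are not reported here); RHBDF1 and SOS1 were added after their values were seen. Alternatives were other scalings, filters, DESeq2 1.42.0, a replicate block, and leaving out each library. Figures were drawn with matplotlib 3.10.9.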

Additional observations from a re-analysis of the deposited data

Results flagged for a closer look

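In 3 of 38 sets of doxorubicin values (members, ratios and named pathway genes) 1 library stood far from the other 4, and chance flags about 1 in 20 such sets. NRG1 was at 7.75 CPM in doxorubicin 5, above the other doxorubicin libraries. ERBB4 was at 7.10 CPM in doxorubicin 5, below the others. EGF was at 2.15 CPM in doxorubicin 3, above the others. Doxorubicin 5 also had the lowest mitochondrial share of counts, 8.70%, and the lowest cardiomyocyte marker sum, 26346 CPM; the part of these in its NRG1 and ERBB4 values was not tested.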

How the results depend on the processing

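RLE factors, scaling without mitochondrial and the most abundant genes, both other filters and DESeq2 left the members' calls as reported, though NRG1 and BTC could not be tested with the CPM filter. DESeq2 called 4945 genes and 6 pathway genes lower. Scaling by library size only gave 4093 genes higher and 499 lower, 28 pathway genes (28 higher and 0 lower), ERBB2 at 0.79 (passing) and ERBB4 at −0.71 (not passing); all 7 members kept their direction. The replicate block, over numbers that showed no sign of pairing samples, called 3638 genes, 6 pathway genes lower and ERBB3 (−1.18, adjusted p = 0.0430). For the ratios the smallest p of that paired comparison is 0.25. No member, ratio or named gene changed sign in any alternative, but with library size only the medians of the adaptor (0.27), RAS-MAPK (0.34), brake (0.24) and chaperone (0.28) lists turned positive, as did the adaptor median without doxorubicin 5 (0.0037). That scaling moved the median of all tested genes to 0.38. The replicate block also lost SHC1 (adjusted p = 0.0745), STAT5A (0.0853) and CDC37 (0.0624).

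Leaving out 1 library gave 649 (without vehicle 1) to 4737 calls (without doxorubicin 5), with 712 without vehicle 3 and 1969 without vehicle 2; 334 to 2472 were higher and 315 to 2265 lower. Pathway calls ran from 3 to 27, with 3 to 17 higher and 0 to 10 lower. EGFR ran from 0.97 to 1.81, ERBB2 from 0.34 to 0.59, ERBB4 from −1.20 to −0.84, ERBB3 from −1.45 to −0.79 and HBEGF from 0.08 to 0.69. NRG1 ran from 3.12 to 8.12 and BTC from 0.83 to 1.72 in the 5 fits that tested each. The log2 ratio differences ran from −1.83 to −1.26 for ERBB4 to ERBB2, −2.31 to −1.41 for ERBB3 to ERBB2, 0.45 to 1.43 for EGFR to ERBB2 and 2.31 to 4.86 for NRG1 to ERBB4. The cause of these changes was not tested. There were 3 vehicle libraries, and NRG1 and BTC had under 20 reads in most libraries. Their log2 fold changes had SEs of 1.87 and 0.79. The smallest change that could have passed was not computed for either ligand, so not passing does not show that either was unchanged.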
